A study of Mus musculus with 25 samples.

Results

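Addition of trichostatin A (TSA) to the G9a inhibitor A366 in mouse somatic cell nuclear transfer (SCNT) embryos was read from 4 of the 25 RNA-seq libraries of the series: CC_TG(A366) replicates 1 and 2 against CC_G(A366) replicates 1 and 2. The libraries were chosen by their treatment labels, and the genes by being gene rows, not copies of repeats, in the count table. All 4 libraries came from cumulus clone (CC) two-cell embryos: nuclei of cumulus cells from wild-type BDF1 (C57BL/6N × DBA2) females were injected into enucleated oocytes of BDF1 females, with latrunculin A (LatA), an inhibitor of actin polymerization, used in both groups. CC_G(A366) embryos received A366 at 1 μM for 24 h, and CC_TG(A366) embryos received the same A366 and, in addition, TSA at 25 nM for the first 8 h. Each library pooled 5 to 10 embryos collected 28 to 29 h after activation; the labels give an age of 4 to 20 weeks for the C57BL/6N females whose oocytes were fertilized in vitro with DBA2 sperm, and the study's methods give another range. Cumulus clones that received LatA alone (CC_cont, 2 libraries) or LatA and TSA (CC_T, 2 libraries), those that received LatA and RK-701 (CC_G(RK-701), 3 libraries) or LatA, TSA and RK-701 (CC_TG(RK-701), 2 libraries), and embryos from in vitro fertilization (IVF, 4 libraries) served as points of comparison. Clones that received LatA, TSA and the G9a inhibitor UNC0638 (2 libraries) entered the fit and the comparison of levels with IVF. So did clones made with cytochalasin B (CytB) in place of LatA, which were untreated or injected with Kdm3a or Kdm4d mRNA (2 libraries each). The labels do not say whether the libraries of a group came from separate experiments, so the p-values measure the spread between these libraries, which may be technical.

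G9a (Ehmt2) and its partner GLP (Ehmt1) place the mono- and dimethyl marks on lysine 9 of histone H3, a modification of silent chromatin, and A366 blocks both enzymes. TSA inhibits class I and class II histone deacetylases, so that histones keep their acetyl groups and chromatin stays open while it acts. At the two-cell stage the mouse embryo starts its major wave of transcription, zygotic genome activation, while RNA stored in the oocyte is degraded. In SCNT embryos the genome that has to be activated is that of a differentiated cell, and genes in H3K9-methylated regions of the donor nucleus are known to resist activation. The question asked of this comparison was how TSA changed the transcriptome of embryos that also received A366.

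The table held 11044239 and 13163539 reads on genes for CC_G(A366) and 15075854 and 15602397 for CC_TG(A366), within the range of 6662727 to 21188688 of the series. The libraries of a group resembled each other (Pearson's r of log2 levels across genes 0.95 for CC_G(A366) and 0.97 for CC_TG(A366)), and each pair differed by more than sampling noise. The composition of the libraries moved with the treatment: copies of repeats took 15% and 14.1% of reads with A366 and 9.38% and 9.44% with TSA and A366, and mitochondrial genes took 6.97% and 6.39% against 4.08% and 3.57% of gene reads. These shares moved together with the results drawn from these 4 libraries, and their part in those results was not tested. The two-cell label was checked on markers: the 7 Obox genes summed to 974.4 to 1056.7 CPM (read counts scaled to a common library size) with A366, 2055.2 to 2223.2 CPM with TSA and A366 and 2513.4 to 2920.3 CPM in IVF, and the 6 Zscan4 genes to 16.5 to 27.5, 61.8 to 64.8 and 334.9 to 511.8 CPM. For cumulus cells, the source of the donor nuclei, 9 to 14 of 40 cumulus and granulosa markers had no read in a library, and Inha, Dcn and Cd44 had none in all 4, although the whole list summed to 285.3 to 304.7 CPM with A366 and 411.7 to 429.9 CPM with TSA and A366, a sum in which Gja1 held 144.7 to 342.9 CPM.

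Of 25794 autosomal genes tested, 799 were higher (3.1%) and 428 lower (1.66%) after TSA was added to A366, 4.76% in both directions, counting a gene where the Benjamini-Hochberg adjusted p of edgeR's quasi-likelihood test was under 0.05 and the change over 2-fold. Genes that rose were mostly protein-coding (684 of 799, 85.6%), as were genes that fell (80.4%), beside 62.9% of all genes tested. The median level of the risen genes went from 32.2 CPM with A366 to 84.6 CPM with TSA and A366. Genes that fell were expressed at lower levels, with a median of 17.0 CPM with A366 and 6.64 CPM with TSA and A366. Both kinds lay above the median of all genes tested, 2.01 CPM with A366. Both CC_TG(A366) libraries stood above both CC_G(A366) libraries for all 799 risen genes and below them for 426 of the 428 fallen genes. One of the exceptions, Gm26703, was read in CC_G(A366) replicate 2 (25.3 CPM) and in none of the other 3 libraries. Over all 25794 genes tested, 5982 were separated upward and 6854 downward in the same way. The genes were called on these 4 libraries, so their separation follows largely from the call. With such separation, leaving out 1 library could hardly turn the direction of a called gene. The change was over 4-fold for 105 risen and 146 fallen genes. The median log2 fold change of all genes was -0.08. With the X and Y chromosomes in the fit, 3.15% of genes were called higher and 1.65% lower. Each of the 4 libraries carried weight in these counts: without CC_G(A366) replicate 1 the test called 584 higher and 217 lower, without replicate 2 it called 301 and 95, without CC_TG(A366) replicate 1 it called 398 and 103, and without its replicate 2 it called 549 and 114, and in none of these fits did a called gene change direction.

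**Figure D1:**
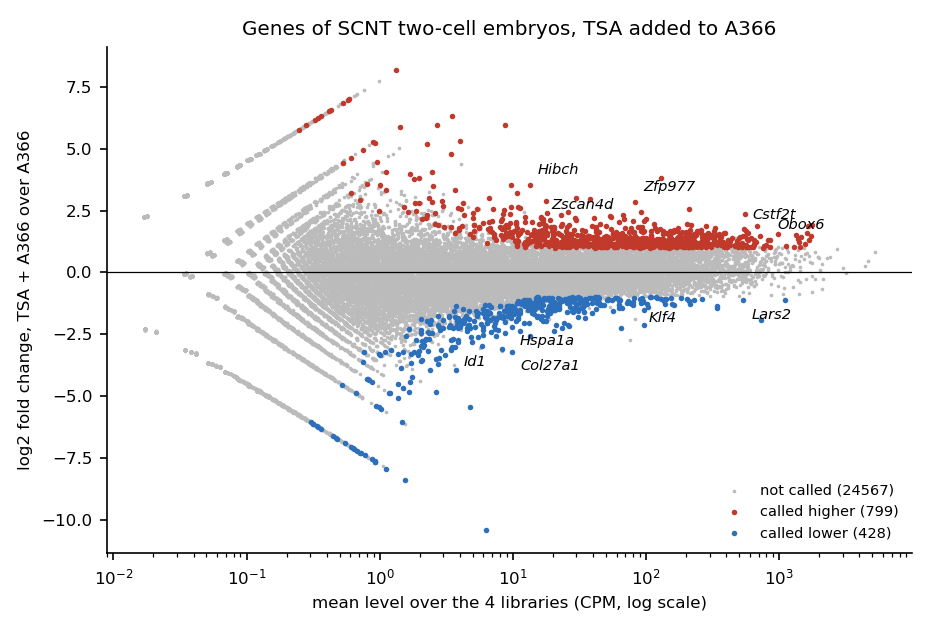
Change of each gene on addition of TSA to A366 (log2 fold change, vertical axis) against its mean level over the 4 libraries in CPM (horizontal axis, log scale). Red points are the 799 genes called higher, blue points the 428 called lower and grey points all other genes tested; most of the red points lie above 10 CPM, and straight grey lines at the left are genes with a few reads in 1 group.

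Genes of zygotic genome activation were among those that rose, but not as whole families. In the Zscan4 cluster, a set of neighbouring zinc finger genes on chromosome 7 that marks the two-cell stage, 2 of 6 tested genes were called higher and none lower, with a median log2 fold change of 1.10, and 1 was called higher when either CC_G(A366) library was left out. These 2 were 33.3% of the cluster, beside 3.1% of all genes called higher. Zscan4d (chr7:11161374-11166159, mm10) was read at 5.71 and 6.65 CPM with A366 and at 28.0 and 27.4 CPM with TSA and A366. The groups did not overlap, and the gene rose by a log2 fold change of 2.16 ± 0.46 (SE, adjusted p = 0.0039). Zscan4a (chr7:10794242-10799057), which the annotation used here lists as an unprocessed pseudogene, was read at 5.29 and 10.4 CPM against 25.7 and 28.3 CPM, a log2 fold change of 1.78 ± 0.33 (adjusted p = 0.00154). Both stayed far under their IVF levels of 178.4 ± 19.4 and 141.7 ± 28.9 CPM (SD, n = 4). Zscan4f did not pass the test (1.01 and 0.617 CPM against 2.57 and 3.45 CPM, adjusted p = 0.0705), and Zscan4c overlapped between the groups (3.94 and 9.47 CPM against 5.44 and 5.07 CPM). Reads were counted only where they aligned to 1 place, so the split between near-identical Zscan4 copies, and likewise between Obox, Usp17l and Trim43 copies, is uncertain.

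Obox genes encode homeodomain proteins of the oocyte and early embryo, and their cluster also lies on chromosome 7. Obox6, Obox8 and Obox3 rose (42.9% of the tested members, beside 3.1% of all genes), while the other 4 members tested (Obox1, Obox2, Obox5, Obox7) did not pass. Obox6 (chr7:15833241-15839678) went from 502.7 and 462.6 CPM to 1268.1 and 1149.7 CPM (log2 fold change 1.32 ± 0.25, adjusted p = 0.00181), beside an IVF level of 1166.3 ± 108.5 CPM. Obox8 (chr7:14331436-14333557) went from 161.2 and 152.3 CPM to 504.0 and 487.5 CPM (1.66 ± 0.27, adjusted p = 0.00053), beside 455.0 ± 45.7 CPM in IVF. Obox3 (chr7:15479825-15639902) reached 164.1 and 139.0 CPM from 69.2 and 58.4 CPM (1.25 ± 0.27, adjusted p = 0.0051), under its IVF level of 330.4 ± 31.4 CPM. For these 3 genes the groups were well separated, whereas Obox5, the most abundant of the others, was at 186.2 and 174.7 CPM with A366 and 150.6 and 161.9 CPM with TSA and A366 (adjusted p = 0.619).

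Among other two-cell genes the changes went both ways. Of 32 tested genes in a list of two-cell transcripts, 4 were called higher (12.5%, beside 3.1% of all genes) and 5 lower (15.6%, beside 1.66%), with a median log2 fold change of -0.16. These counts were not stable: 2 and 0 without CC_G(A366) replicate 1, 0 and 1 without its replicate 2, 2 and 2 without CC_TG(A366) replicate 1 and 2 and 0 without its replicate 2. Dppa2 and Dppa4, paired chromatin factors known to act upstream of the two-cell programme, rose: Dppa2 from 491.4 and 459.9 CPM to 1148.2 and 1182.9 CPM (1.29 ± 0.27, adjusted p = 0.00324) and Dppa4 from 305.6 and 305.7 CPM to 615.0 and 649.4 CPM (1.05 ± 0.23, adjusted p = 0.00491). Both were above their IVF means of 587.4 ± 53.2 and 543.2 ± 47.1 CPM. Usp17lb, a deubiquitinase gene, and Pramef6 were the other members that rose. Usp17lc, from the same gene family as Usp17lb, fell from 100.3 and 100.0 CPM to 42.1 and 42.9 CPM (-1.24 ± 0.31, adjusted p = 0.0133), and Usp17ld, Gm20767, AF067061 and Chit1 also fell. Eif1a, a translation initiation factor gene on chromosome 18, rose from 88.3 and 98.3 CPM to 287.0 and 218.7 CPM (1.44 ± 0.29, adjusted p = 0.00277), around its IVF level of 279.3 ± 18.7 CPM.

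Germline genes, which are silent in somatic cells and often carry repressive marks there, rose in part. Of 49 tested members 5 were called higher (10.2%, beside 3.1% of all genes) and none lower, and 36 had a fitted change above 0 (11345 of 25794 over all genes), with a median log2 fold change of 0.58. Without CC_G(A366) replicate 2 or CC_TG(A366) replicate 1, 3 members were called. Cstf2t (chr19:31082837-31087069), a retrotransposed copy of a 3′ end processing factor gene that is known from male germ cells, went from 231.9 and 269.1 CPM to 873.8 and 800.2 CPM (1.74 ± 0.26, adjusted p = 0.000304), above its IVF level of 584.8 ± 51.4 CPM. Hormad1, a protein of the meiotic chromosome axis, went from 15.4 and 33.6 CPM to 119.9 and 82.4 CPM (2.04 ± 0.37, adjusted p = 0.00128). Terb2 (chr2:122186272-122206397), which ties telomeres to the nuclear envelope in meiosis, went from 44.6 and 40.1 CPM to 104.0 and 103.8 CPM (1.30 ± 0.24, adjusted p = 0.00173), and Tex12, of the synaptonemal complex, rose as well (1.15 ± 0.30, adjusted p = 0.0162). Cox7b2, a testis form of a respiratory chain subunit, had 1 read over both CC_G(A366) libraries and 36 and 15 reads in the CC_TG(A366) libraries, a ratio of 47.0 with an exact 95% counting interval of 8.06 to 1890 (adjusted p = 0.0422). That interval covers counting error only, and its width shows how little the lower group constrains the ratio.

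The upstream sequences of 4 of the genes that moved are shown, so that the promoters of risen two-cell genes can be read beside those of a risen germline gene and a fallen stress gene. Each run is the 250 bases before the RefSeq start (GRCm38.p6), 5′ to 3′ on the strand of the gene. Capitals mark matches on either strand to 6 motifs: the CCAAT box (CCAAT), the GC box (GGGCGG), the TATA box (TATAAA), the site of K50 homeodomain proteins (TAATCC), the heat shock element (GAANNTTC) and the ETS site (CGGAAG). Of 27025 promoter windows of this length, 34.5% hold a CCAAT box, 32.9% a GC box, 13.0% a TATA box, 6.38% a K50 homeodomain site, 6.78% a heat shock element and 13.8% an ETS site. Many of these windows belong to genes not read here. Among 6099 windows of tested protein-coding genes with at least the lower quartile of the risen genes' level in A366, 38.0% hold a CCAAT box, 61.3% a GC box, 5.46% a TATA box, 5.15% a K50 homeodomain site, 5.21% a heat shock element and 29.7% an ETS site.
Zscan4d: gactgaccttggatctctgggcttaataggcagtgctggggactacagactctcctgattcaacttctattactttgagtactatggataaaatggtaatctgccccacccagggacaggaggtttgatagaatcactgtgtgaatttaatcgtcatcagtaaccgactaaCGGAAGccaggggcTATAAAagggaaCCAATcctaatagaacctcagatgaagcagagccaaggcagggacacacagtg
Obox3: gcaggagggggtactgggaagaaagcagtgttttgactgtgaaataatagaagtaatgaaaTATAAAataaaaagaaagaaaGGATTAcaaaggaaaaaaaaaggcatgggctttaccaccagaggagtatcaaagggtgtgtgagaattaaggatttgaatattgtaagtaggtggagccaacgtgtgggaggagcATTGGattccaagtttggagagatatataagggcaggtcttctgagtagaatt
Cstf2t: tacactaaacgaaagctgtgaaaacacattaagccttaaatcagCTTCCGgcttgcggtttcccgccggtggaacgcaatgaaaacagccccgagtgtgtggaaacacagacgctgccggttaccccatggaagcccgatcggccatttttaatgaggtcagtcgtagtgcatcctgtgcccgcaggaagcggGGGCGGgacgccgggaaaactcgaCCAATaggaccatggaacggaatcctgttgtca
Hspa1a: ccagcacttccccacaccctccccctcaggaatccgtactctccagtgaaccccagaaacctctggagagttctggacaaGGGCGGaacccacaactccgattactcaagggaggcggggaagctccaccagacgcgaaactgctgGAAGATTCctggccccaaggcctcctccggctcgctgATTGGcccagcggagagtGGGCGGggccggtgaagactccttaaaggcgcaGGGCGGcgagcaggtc
These windows lie at chr7:11166149-11166398 and chr7:15639778-15640027, both on the minus strand, chr19:31082591-31082840 on the plus strand and chr17:34972157-34972406 on the minus strand. The Zscan4d and Obox3 windows are poor in CpG dinucleotides (3 and 1) and hold a TATA box and a CCAAT box each, with an ETS site in Zscan4d and a K50 homeodomain site in Obox3. The windows of Cstf2t and Hspa1a hold 19 and 14 CpG, no TATA box and a CCAAT box each, with 1 GC box and an ETS site in Cstf2t and 3 GC boxes and a heat shock element in Hspa1a. A match describes the letters and was not tested as a binding site.

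**Figure D2:**
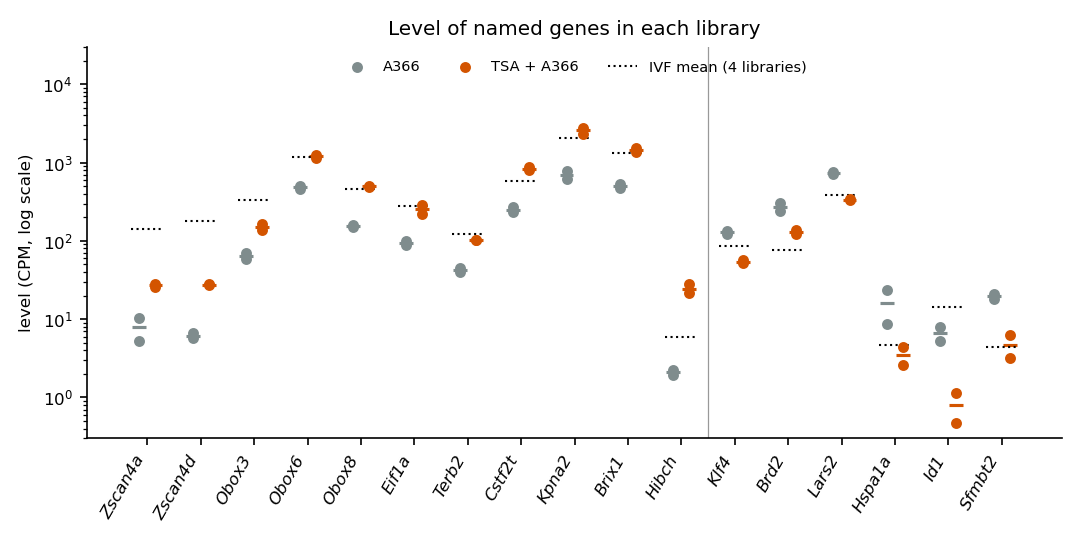
Level of 17 named genes in each library in CPM (log scale), with A366 in grey, TSA and A366 in orange, a short bar for the mean of each pair and a dotted line for the IVF mean of 4 libraries. The vertical line separates 11 genes that rose from 6 that fell; Obox6 and Obox8 with TSA and A366 lie at their IVF levels, while both Zscan4 genes stay below theirs.

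The 12 largest increases by fold among well-covered protein-coding genes were in genes at or under 2.26 CPM with A366, Cox7b2 among them. Syt17, a synaptotagmin, had no read in either CC_G(A366) library and stood at 3.65 and 1.69 CPM with TSA and A366, which was at least 23.3-fold higher when the lower group is set to 3 reads over its 2 libraries. Mgst1, a glutathione transferase of membranes, was at least 7.68-fold higher by the same rule. Zfp986, a zinc finger gene, went from 0.0839 and 0.0686 CPM to 6.15 and 4.46 CPM, a ratio of 70.0 (exact 95% counting interval 19 to 583), and the olfactory receptor gene Olfr670 from the same 0.0839 and 0.0686 CPM to 6.94 and 6.76 CPM (ratio 90.7, interval 24.8 to 754). D1Pas1, a testis helicase of the DDX3 family, went from 0.503 and 0.0686 CPM to 11.9 and 22.2 CPM (5.95 ± 1.13, adjusted p = 0.00187), beside 109.7 ± 3.29 CPM in IVF. Ccdc187, Iyd, Vmn1r209, Zscan4-ps3 and Zfp712 stood at no more than 6.15 CPM in the 4 libraries. Hibch, an enzyme of valine breakdown, reached the highest level of the 12 genes: it rose from 1.93 and 2.26 CPM to 28.0 and 21.3 CPM (3.55 ± 0.41, adjusted p = 4.83e-05), above its IVF level of 5.85 ± 0.623 CPM.

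Other named risen genes were among the most abundant of the embryo. Kpna2, an importin, went from 778.1 and 616.6 CPM to 2805.3 and 2345.7 CPM (1.89 ± 0.45, adjusted p = 0.0099), and Ccnb1, the mitotic cyclin B1, from 979.1 and 855.4 CPM to 2650.0 and 2428.8 CPM (1.47 ± 0.34, adjusted p = 0.00826). Both passed their IVF means of 2038.1 ± 218.8 and 2004.0 ± 142.3 CPM. Mier3, of a histone deacetylase complex, reached 2459.4 and 2426.7 CPM from 882.6 and 723.3 CPM (1.61 ± 0.27, adjusted p = 0.000676). The cap-binding factor Eif4e (1.29 ± 0.28, adjusted p = 0.00426) and the exportin Xpo1 (1.13 ± 0.25, adjusted p = 0.00537) were the others.

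Genes of ribosome assembly included several that rose. Of 58 tested genes of ribosome biogenesis, 12 were called higher (20.7%, beside 3.1% of all genes) and none lower, 45 had a fitted change above 0 and the median log2 fold change was 0.55. The count was 6 without CC_G(A366) replicate 2. Brix1, needed for the large ribosomal subunit, went from 535.0 and 467.3 CPM to 1533.5 and 1386.7 CPM (1.54 ± 0.28, adjusted p = 0.00128), beside 1324.9 ± 108.1 CPM in IVF. Gtpbp4, a nucleolar GTPase, reached 855.1 and 799.3 CPM from 331.0 and 311.2 CPM (1.37 ± 0.20, adjusted p = 0.000265). Nop16, Polr1e, Utp15, Noc3l, Mak16, Rpf2, Gnl2, Ddx52, Nifk and Imp4 were the other members that rose, with log2 fold changes of 1.00 (Mak16) to 1.41 (Nop16 and Ddx52). Of 76 protein subunits of the ribosome itself 2 were called higher (2.63%, beside 3.1% of all genes), the tissue-restricted paralogs Rpl10l (1.88 ± 0.34) and Rpl3l. The median of these subunits was 0.25, and reads of such paralogs may be split with their parent genes. In the list for DNA replication and S phase 4 of 37 tested genes were called higher and 1 lower, with a median of 0.49 and 30 of 37 fitted above 0, and 2 were called higher without CC_G(A366) replicate 2 or CC_TG(A366) replicate 1. In all, 10.8% of that list were called higher and 2.7% lower, beside 3.1% and 1.66% of all genes. Rrm1 and Rrm2, the subunits of ribonucleotide reductase, rose by 1.27 ± 0.26 and 1.03 ± 0.28, and the primase subunit Prim1 and the replication factor Gins1 by 1.13 ± 0.21 and 1.20 ± 0.25. Pold1, the catalytic subunit of DNA polymerase delta, fell from 5.2 and 6.04 CPM to 0.215 and 0.879 CPM (-3.33 ± 0.74, adjusted p = 0.00553).

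Genes that act on the marks targeted by the compounds gave 1 risen member in each of 4 lists, 4.17% to 8.33% of a list beside 3.1% of all genes. Ehmt2 and Ehmt1, the targets of A366, were at 30.1 and 26.2 CPM and at 79.5 and 95.8 CPM with A366, and at 25.6 and 23.9 CPM and 83.5 and 95.6 CPM with TSA and A366 (adjusted p = 0.709 and 0.983). Of 20 tested H3K9 methylation writers and readers 1 was called, Pphln1, a subunit of the HUSH silencing complex, which rose by 1.17 ± 0.23 (adjusted p = 0.00207). Of 12 tested H3K9 demethylases, Riox2 rose, from 57.2 and 46.9 CPM to 161.4 and 169.4 CPM (1.67 ± 0.28, adjusted p = 0.000766), while Kdm4c had a log2 fold change of 0.99 ± 0.20 (adjusted p = 0.0026), just under the 2-fold limit, and Kdm3a was at 130.2 and 161.5 CPM against 141.8 and 149.1 CPM. Of 24 tested histone deacetylases and partners 1 was called: Hdac1, a class I enzyme and a target of TSA, rose from 146.3 and 113.7 CPM to 267.1 and 293.7 CPM (1.11 ± 0.28, adjusted p = 0.0154). Hdac2 was at 85.4 and 91.4 CPM against 59.5 and 55.6 CPM (adjusted p = 0.104), and the median of this list was -0.39. The call of Hdac1 was lost in each of the 4 fits without a library. Among 18 tested acetylation writers and readers Hat1 rose (1.19 ± 0.29, adjusted p = 0.0112), and the reader Brd2 (-1.06 ± 0.21, adjusted p = 0.00258) and the acetyltransferase Kat6a (-1.01 ± 0.23, adjusted p = 0.00593) fell. TSA was given for the first 8 h, and embryos were collected 28 to 29 h after activation. Levels while TSA was present, of Hdac1 or any other gene, were not measured. The paper reports that TSA raised H3K9 acetylation before the two-cell stage but not at that stage. At collection, genes known to rise on deacetylase inhibition in somatic cells gave no call in that direction. Of 20 tested, none was called higher and Tubb3, Hspa1a and Hspa1b were called lower (15%, beside 1.66% of all genes), with a median of -0.64. None of the 3 was called when CC_G(A366) replicate 2 or either CC_TG(A366) library was left out. In the same fits the acetylation genes called lower numbered 0 without CC_G(A366) replicate 2 or CC_TG(A366) replicate 1 and 1 without CC_TG(A366) replicate 2.

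Fallen genes included transcription factors and stress genes. Of 33 tested early transcription factors 12.1% were called lower and 6.06% higher, beside 1.66% and 3.1% of all genes. Klf4 (chr4:55527143-55532466), a Krüppel-like factor of pluripotent cells, went from 122.6 and 133.9 CPM to 51.9 and 56.4 CPM (-1.24 ± 0.20, adjusted p = 0.000464), below its IVF level of 84.9 ± 4.98 CPM. Klf2 went from 33.0 and 42.2 CPM to 14.4 and 18.5 CPM (-1.19 ± 0.34, adjusted p = 0.0316), and Id1, an inhibitor of helix-loop-helix factors, from 5.29 and 7.89 CPM to 1.14 and 0.473 CPM (-3.02 ± 0.55, adjusted p = 0.00138). Of 33 tested early transcription factors these and Mycn were the 4 called lower, and Sall4 (1.20 ± 0.29, adjusted p = 0.0118) and Tfap2c (1.48 ± 0.41, adjusted p = 0.0263) were the 2 called higher; 2 were called lower when CC_G(A366) replicate 2 or either CC_TG(A366) library was left out, and none higher when either CC_G(A366) library or CC_TG(A366) replicate 1 was, and 1 higher without CC_TG(A366) replicate 2. Of 26 tested stress and heat shock genes 3 were called lower (11.5%, beside 1.66% of all genes) and none higher, with a median of -0.42, and none was called when CC_G(A366) replicate 2 or either CC_TG(A366) library was left out. The inducible heat shock gene Hspa1a went from 8.73 and 23.3 CPM to 2.57 and 4.46 CPM (-2.19 ± 0.57, adjusted p = 0.0166), its near-identical neighbour Hspa1b fell by 1.48 ± 0.37 on the log2 scale (adjusted p = 0.014), and Ddit3, a factor of the unfolded protein response, fell by 1.34 ± 0.36 (adjusted p = 0.0213). Btg2 was the 1 p53 target called among 29 (-1.60 ± 0.32, adjusted p = 0.00244), and Cnn2 and Junb were the 2 actin and SRF genes called among 26, both lower. These calls were 3.45% and 7.69% of their lists, beside 1.66% of all genes. Junb had no read with TSA and A366 and was at least 6.88-fold lower. Its call was lost in the fit of the compared libraries alone, with and without a term for the replicate number.

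The most abundant fallen genes were Ube2d2a, a ubiquitin-conjugating enzyme gene, at 1441.7 and 1573.2 CPM with A366 and 673.8 and 719.6 CPM with TSA and A366 (-1.11 ± 0.27, adjusted p = 0.0102), and Lars2, the mitochondrial leucyl-tRNA synthetase, at 759.1 and 708.5 CPM against 329.7 and 343.5 CPM (-1.12 ± 0.16, adjusted p = 0.000265). Alyref, of mRNA export, Rsrp1, Dcp2, of mRNA decapping, and Brd2 followed with log2 fold changes of -1.06 to -1.14. By fold, the first 12 fallen genes were Tmem221, Zdhhc11, Ceacam19, Irx5, Neurl3, Pcdh8, C3, Pfkfb4, S1pr3, Kcnmb2, Prph and Ambp, all under 6 CPM with A366. Tmem221 (1.26 and 3.22 CPM with A366), Zdhhc11, Ceacam19, Irx5 and Neurl3 had no read with TSA and A366, and were at least 22.4-, 17.4-, 12.3-, 11.2- and 9.05-fold lower. Ambp, a plasma protein gene of hepatocytes, went from 5.45 and 4.8 CPM to 0.143 and 0.203 CPM (-4.81 ± 1.06, adjusted p = 0.00656) and had no read in IVF.

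Oocyte transcripts, cumulus markers and imprinted genes were examined because SCNT embryos hold maternal RNA and a somatic genome. Of 43 tested maternal oocyte genes, Zp3, Nlrp5, Zar1l and Ccnb1 were called higher and Ybx2 lower, with a median of 0.14, and 2, 2 and 1 were called higher without CC_G(A366) replicate 1, its replicate 2 or CC_TG(A366) replicate 1; Zp3, of the zona pellucida, went from 50.4 and 47.5 CPM to 115.4 and 103.9 CPM (1.16 ± 0.20, adjusted p = 0.000779). The called maternal genes were 9.3% of the list for higher and 2.33% for lower, beside 3.1% and 1.66% of all genes. In these pooled embryos, fewer cells of a type and less RNA per cell cannot be told apart. Of 33 tested cumulus and granulosa markers, Gja1, a gap junction gene that embryos also express, rose (1.06 ± 0.24, adjusted p = 0.00584), and Ptgs2, the inducible cyclooxygenase, fell from 5.03 and 7.27 CPM to 0.787 and 0.609 CPM (-3.13 ± 0.96, adjusted p = 0.0456). These calls were 3.03% of the list in each direction, beside 3.1% of all genes called higher and 1.66% called lower. The median of this list was -0.83, and 6 of 33 were fitted above 0. Sfmbt2, imprinted through maternal H3K27me3, was the 1 gene called among 18 of its kind and fell from 21 and 18.3 CPM to 6.29 and 3.18 CPM (-2.05 ± 0.49, adjusted p = 0.00918), towards an IVF level of 4.47 ± 0.501 CPM. Among 40 canonical imprinted genes Ube3a was the 1 called and rose (1.19 ± 0.18, adjusted p = 0.000339). The call of Sfmbt2 was 5.56% of its list, beside 1.66% of all genes called lower. That of Ube3a was 2.5% of its list, no more than the 3.1% of all genes called higher.

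**Figure D3:**
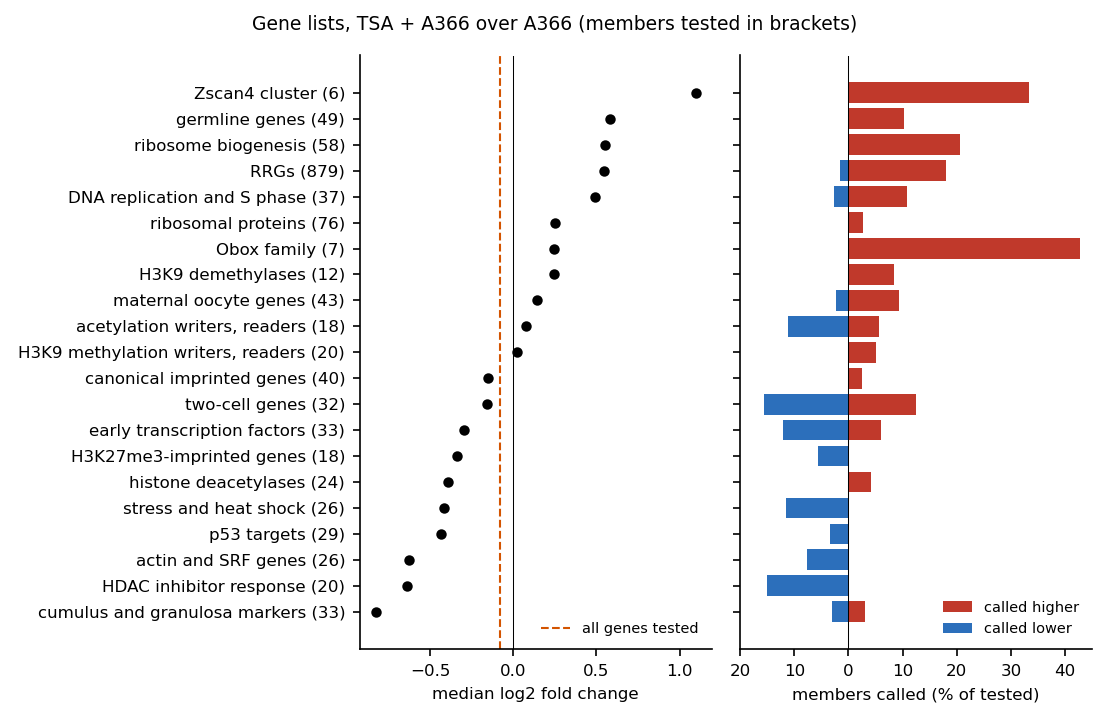
Median log2 fold change (left) and percent of tested members called higher (red, to the right) or lower (blue, to the left) in each gene list, for TSA and A366 over A366, with the number of members tested in brackets. The dashed line is the median of all genes tested, -0.08; among the lists plotted the Zscan4 cluster has the highest median, 1.10, and the cumulus and granulosa markers the lowest, -0.83.

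The study's reprogramming-resistant genes (RRGs), genes of zygotic genome activation that were lower in untreated SCNT than in IVF embryos, were counted as well; they were chosen on IVF and untreated SCNT libraries, none of them among the 4 compared here. Of those tested, 159 (18.1%) were called higher and 13 lower, and the median log2 fold change was 0.55, or 0.53 with the 36 RRGs without a read in CC_G(A366) set to their bound. RRGs made up 3.41% of the tested genes and 19.9% of the 799 that rose, so most of the risen genes were not RRGs. By replicate, the count was 76 without CC_G(A366) replicate 2 and 91 without CC_TG(A366) replicate 1.

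How far the genes that moved lay from IVF was measured in each library as the median difference from the IVF mean of log2(CPM + 1). The 799 risen genes lay at -0.86 and -0.98 in the CC_G(A366) libraries and at 0.44 and 0.35 in the CC_TG(A366) libraries, and the 428 fallen genes at 0.89 and 0.94 and at -0.41 and -0.39. The genes were chosen on these 4 libraries, so only the other libraries bear on the pattern. In CC_cont, the untreated clones, the risen genes lay at -0.33 and -1.07 and the fallen genes at 0.49 and 0.88; in CC_T they lay at -0.84 and -0.39 and at 0.57 and 0.34. With TSA and RK-701 the risen genes lay at 0.44 and 0.43 and the fallen genes at -0.24 and -0.22, close to their place with TSA and A366, and with TSA and UNC0638, another G9a inhibitor, the risen genes lay at 0.39 and 0.06 and the fallen genes at 0.11 and 0.18, above IVF. In clones made without LatA and injected with mRNA of the H3K9 demethylases Kdm3a or Kdm4d the risen genes lay at 0.09 to 0.32 and the fallen genes at -0.06 to 0.28. Set against IVF, 31.2% of the risen genes were lower in CC_cont, where 6.48% of all genes were, and 3.13% were higher, where 8.83% were. Of the fallen genes, 36.2% were higher in CC_cont than in IVF and 4.21% lower. None of the compared libraries entered the contrast of CC_cont and IVF. The background of all genes holds more genes of few reads. With A366, 40.9% of all genes tested were under 1 CPM, against 6.26% of the risen and 2.1% of the fallen genes. No background matched for level was used here or for the gene lists, and the part of level in these shares was not tested.

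**Figure D4:**
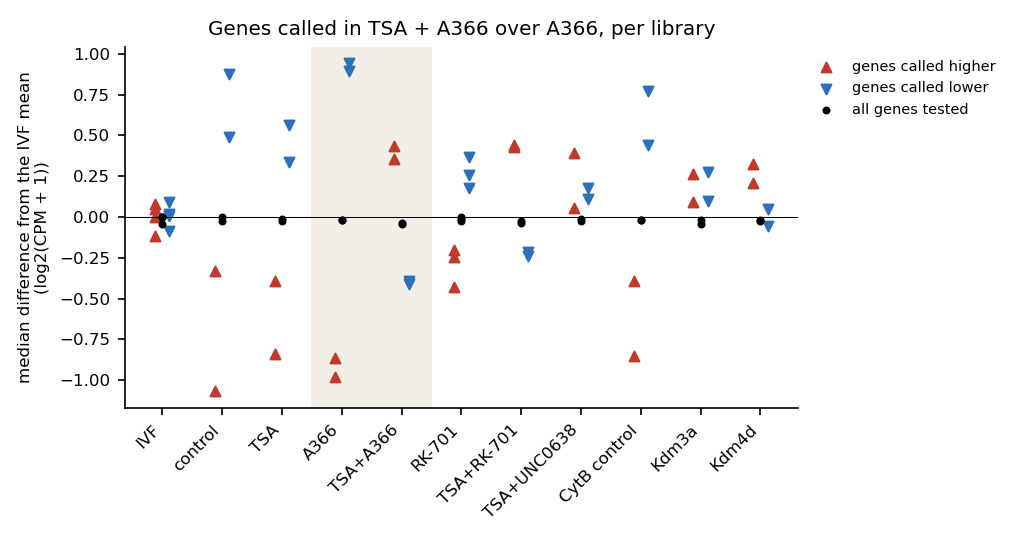
Median difference of the genes called higher (red, upward) and lower (blue, downward) from the IVF mean, in log2(CPM + 1), in each library of the series, with all genes tested in black; the shaded groups are the 4 libraries on which the genes were called. Control, TSA, A366 and RK-701 libraries have the red points below 0 and the blue points above it, and both libraries with TSA and A366, like both with TSA and RK-701, have them the other way round.

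The same genes were then read in the other comparisons of TSA, which share no library with this one. TSA given without a G9a inhibitor (CC_T against CC_cont) called 41 genes higher (0.159%) and 41 lower (0.159%) of all tested, 82 in all, which became 13 without CC_T replicate 1, 14 without CC_cont replicate 1 and 847 without CC_cont replicate 2. For the 799 genes that rose on A366, its median log2 fold change was 0.04, with 55.1% fitted above 0 and 6 called higher; for the 428 that fell it was -0.26, with 8 called lower. TSA added to RK-701 (CC_TG(RK-701) against CC_G(RK-701)) called 1380 genes higher (5.35%) and 1266 lower (4.91%), 2646 in all, or 1304 without CC_TG(RK-701) replicate 2. There the 799 genes had a median log2 fold change of 0.76, 89.9% were fitted above 0, and 251 (31.4% of the 799 and 18.2% of the 1380) were called higher. Of the 428 fallen genes 105 (24.5% of the 428 and 8.29% of the 1266) were called lower, with a median of -0.68. Across the 15213 genes with a mean of at least 1 CPM, Pearson's r of the log2 fold changes was 0.34 with TSA added to RK-701 and 0.16 with TSA alone, and across all 25794 genes it was 0.17 and 0.10; the points are genes of the same libraries and not independent.

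**Figure D5:**
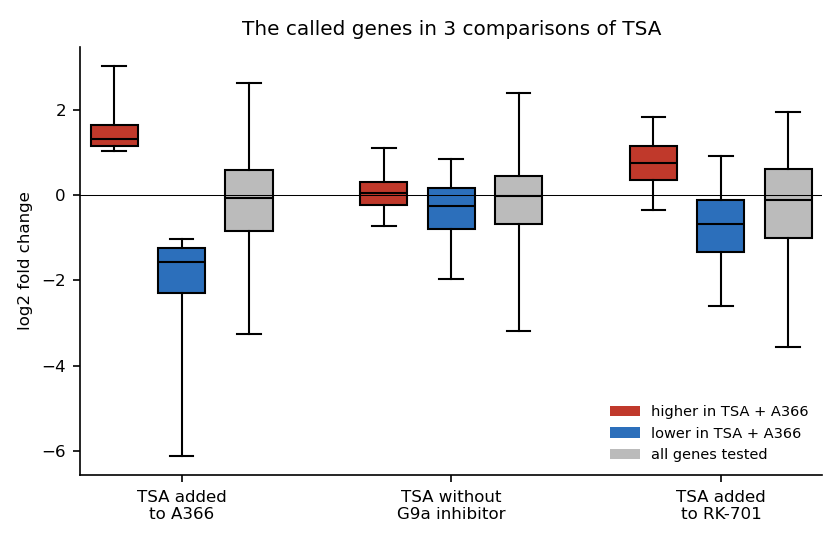
Log2 fold changes of the genes called higher (red) and lower (blue) in TSA added to A366 and of all genes tested (grey) in 3 comparisons of TSA; boxes span the quartiles with the median as a line, and whiskers reach from the 5th to the 95th percentile. The first comparison is the one the genes were called on; the red median is 0.04 in TSA without a G9a inhibitor and 0.76 in TSA added to RK-701.

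Whether TSA acted differently on A366-treated embryos than on untreated clones was tested by the interaction term, which called 473 genes (1.83%), 331 of them higher and 142 lower. Of the named genes, Hibch (log2 difference 3.56 ± 0.55, adjusted p = 0.00178), Eif1a (1.85 ± 0.41, adjusted p = 0.0204), Cstf2t (1.53 ± 0.36, adjusted p = 0.0255) and Brix1 (1.59 ± 0.39, adjusted p = 0.0327) passed with the higher log2 fold change on A366. Lars2 (-1.44 ± 0.22, adjusted p = 0.00178) and Klf4 (-1.59 ± 0.28, adjusted p = 0.00448) passed with the lower. For Eif1a, Lars2 and Klf4, and by a small margin for Brix1 and Hibch, the interaction exceeded the change on A366 in size. Their change with TSA alone was therefore fitted in the opposite direction. The interaction of Zscan4d, Zscan4a, Obox3, Obox6, Obox8 and Terb2 did not pass (adjusted p = 0.137, 0.121, 0.146, 0.0936, 0.59 and 0.151). The libraries of CC_cont stood apart from each other (Kpna2 at 1601.9 and 420.9 CPM), and so did those of CC_T (559.4 and 1307.3 CPM), and the interaction count depended on them: it was 41 without CC_cont replicate 1, 2391 without CC_cont replicate 2, 44 without CC_T replicate 1, 1100 without CC_T replicate 2, 282 without CC_G(A366) replicate 1, 45 without its replicate 2, 44 without CC_TG(A366) replicate 1, 201 without its replicate 2 and 17 in the fit of the 8 compared libraries alone. The difference between TSA added to A366 and TSA added to RK-701 called 894 genes (3.47%), 378 of them with the higher value on A366 and 516 with the lower. Zscan4d and Zscan4a were among them (2.31 and 1.74 on the log2 scale): with TSA added to RK-701 their log2 fold changes were -0.15 and 0.04. This count was 178 without CC_TG(RK-701) replicate 2, 262 without CC_TG(A366) replicate 1, 435 without CC_G(A366) replicate 2, 575 without CC_G(A366) replicate 1 and 590 without CC_TG(A366) replicate 2.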

How the data were processed

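RNA of pooled two-cell embryos was amplified with SMART-Seq HT kits. The deposited table holds whole-number counts of read pairs per feature; the authors made it with Trimmomatic, unique alignment to mm10 with STAR and featureCounts 1.6.2 (exons, both mates aligned, no strand), over genes and copies of repeats. Because strand was not used, overlapping and antisense genes cannot be told apart. Of 55375 gene rows (features whose identifier names 1 gene), 55134 were given a symbol from GENCODE M21 (GRCm38, the same assembly as mm10).

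Counts were fitted here with edgeR 4.0.16 (TMM factors, quasi-likelihood test, 1 term per group, all 25 libraries of 11 groups) over 25794 genes of the autosomes whose mean count reached 1; X and Y were fitted in an alternative. A gene was called at a Benjamini-Hochberg adjusted p under 0.05 and a change over 2-fold. Levels are CPM, counts on genes scaled to a common library size after TMM. They are not corrected for length, so where genes are ranked or compared by level, their length enters too. SE is the log2 fold change divided by the square root of F. With 2 libraries per group, leave-one-out fits take the spread of the lone library from the other groups. Where the lower group had no read, a bound was set at 3 reads over its 2 libraries; with 1 to 3 reads an exact 95% counting interval is given, which covers counting error only. Named genes were the study's examples (Zscan4a, Zscan4d, Obox3, Obox6, Obox8, Eif1a, Cox7b2, Terb2, Cstf2t), the 12 largest changes and the 6 most abundant called genes per direction among protein-coding genes whose higher group had no library under 10 reads (symbols of Gm or Rik form only counted), the 6 largest interactions per direction by the same filter, and members of the lists. Members, genes and lists were chosen with earlier results of these data known. RRGs were taken from the study's list as names only.

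Fits were tested on simulated counts with known changes. The alternatives were DESeq2 1.42.0, RLE factors, other filters on low counts, X and Y, the compared libraries alone, a replicate block, no fold limit and leaving out each library. Depth was 6662727 to 21188688 reads on genes per library. Some promoters were not used here, and 1 gene that the rule names is not reported here.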

Additional observations from a re-analysis of the deposited data

Results flagged for a closer look

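TSA changed 473 genes differently in A366-treated than in untreated clones by the test of the interaction, and 894 genes differently on A366 than on RK-701 by the test of that difference. Both counts rest on single libraries, as given with them above, and the part of those libraries in each gene's value was not tested.

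Among the named genes, the interaction on the log2 scale was 1.85 for Eif1a, 1.53 for Cstf2t, 3.56 for Hibch and 1.41 for Mier3, all with the higher value on A366. It was -1.44 for Lars2, -1.74 for Alyref and -1.49 for Brd2. The largest interactions by fold were in genes of few reads. Bbs7, of a ciliary complex (5.13), Zfp993 (5.46), Prelid3a (4.12) and Crb1 (3.67) had the higher value on A366, and Sva (-4.68) the lower. The fitted terms of Zfp986 (6.25), Nes (-5.82), Gata2 (-5.63), Mgst1 (13.58), Trim46 (12.70), Pcdh8 (-11.27), Ankrd34c (-11.31) and Chrna5 (-9.12) involve groups with no or few reads, depend on the prior count of the fit and are not sizes of effect.

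Between TSA added to A366 and TSA added to RK-701 the log2 difference was 1.74 for Zscan4a, 2.31 for Zscan4d, 3.51 for Bbs7 and 3.25 for Crb1, with the higher value on A366. It was -1.79 for Lars2, -2.50 for Alyref, -1.67 for Rsrp1 and -1.26 for Brd2. The fitted differences of Zfp986 (4.82) and Neurl3 (-8.98) again depend on the prior count, since a group had no or few reads, and are not sizes of effect.

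Genes of the sex chromosomes, left out of the test of autosomes, also moved. All cumulus clones compared here carry the genome of a female donor. With X and Y in the fit, 3.15% of genes were called higher and 1.65% lower, and of 1010 X-linked genes 48 (4.75%) were called higher and 17 (1.68%) lower. Hprt, of purine salvage, went from 652.1 and 679.0 CPM to 1806.9 and 1734.3 CPM, Prps1 from 869.7 and 897.2 CPM to 2487.1 and 2185.1 CPM, and the germline gene Tex11 from 71.8 and 59.3 CPM to 294.4 and 213.1 CPM. Nxf2 had 0.0 and 5.49 CPM with A366 and 66.8 and 72.9 CPM with TSA and A366. Prkx, Usp11 and Pgrmc1 were among those called lower, and Xist was not called (32.4 and 31.6 CPM against 14.9 and 41.0 CPM, adjusted p = 0.854). These genes were chosen after their values were seen.

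For Lars2, 1 of the 4 IVF libraries lay apart from the others, at 454.7 CPM. Chance puts about 1 group in 20 past the limit used.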

How the results depend on the processing

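No called gene of TSA added to A366 changed direction under any alternative. In the leave-one-out fits this was nearly fixed beforehand, since the libraries of the 2 groups were separated for almost every called gene. The number of calls did change. It was 1868 (766 lower) with the compared libraries alone, 1961 (786 lower) with a replicate block in that fit and 1872 (1305 higher) at an adjusted p alone, and 396 to 801 with 1 library left out (301 to 584 higher, 95 to 217 lower). DESeq2 called 744 lower. The RRG count ran from 76 to 124 over the leave-one-out fits. All 4 leave-one-out fits called 174 of the 799 risen and 28 of the 428 fallen genes again, and DESeq2, RLE factors, the compared libraries alone and the block all called 748 and 350. Of 170 named called genes 38 were called in all 8 such fits, among them Obox6, Obox8, Zscan4a, Terb2, Cstf2t, Hibch, Brix1, Klf4, Lars2 and Id1. DESeq2 gave an adjusted p for 158 of the 170 named genes, and a gene without one was counted as still called in that fit. The numbers of the A366 groups did not pair (correlation of deviations 0.01).

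The interaction count was 1260 with DESeq2, 1234 without a filter, 17 with the compared libraries alone, 18 with the replicate block and 41 to 2391 with 1 library left out. That of A366 minus RK-701 was 1514, 1676 (compared libraries alone), 1664 (replicate block) and 178 to 890. TSA alone gave 419 with DESeq2, 416 without a filter, 2 with its 4 libraries, 4 with the block, 413 with the numbers crossed (chosen after seeing the data, as the correlation was -0.17) and 13 to 847. TSA added to RK-701 gave 4020 at an adjusted p alone and 1304 to 2622 with 1 library left out, and CC_cont against IVF 2590 with the block. For these counts the cause was not tested. Depth limits the folds of genes with few reads in a group.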

Other observations

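Several protein complexes had many members among the risen genes. The families below were picked by symbol after their values had been seen, so their counts describe these libraries and support nothing beyond them. Of 38 tested proteasome subunits, 13 were called higher (34.2%, beside 3.1% of all genes) and none lower, with a median log2 fold change of 0.87, and 6, 3 and 5 were called without CC_G(A366) replicate 1, its replicate 2 or CC_TG(A366) replicate 1; Psmd14, the deubiquitinase of the lid, went from 198.0 and 177.5 CPM to 544.9 and 498.3 CPM, and Psmc2, an ATPase of the base, from 112.4 and 83.2 CPM to 303.7 and 301.4 CPM. Of 12 subunits of translation initiation factor eIF3, 6 were called higher, with Eif3e at 99.7 and 100.5 CPM against 345.8 and 303.8 CPM. Of 8 subunits of the cytosolic chaperonin, 3 were called higher (Tcp1, Cct4 and Cct5), of 9 COP9 signalosome subunits 4, of 14 Integrator subunits 5 and of 77 proteins of the mitochondrial ribosome 10, and none of these was called lower. Their shares were 37.5%, 44.4%, 35.7% and 13.0%, beside 3.1% of all genes. Without CC_G(A366) replicate 2 the 4 counts became 0, 1, 0 and 0, without CC_TG(A366) replicate 1 they became 1, 2, 2 and 2, without CC_G(A366) replicate 1 they became 1, 3, 3 and 3, and without CC_TG(A366) replicate 2 they became 2, 3, 3 and 1. With TSA alone, which called 0.159% of all genes higher, the medians of these 6 complexes lay between -0.19 and 0.24; with TSA added to RK-701 the medians lay between 0.27 and 0.89.

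Zinc finger genes numbered Zfp900 to Zfp999, many of them in clusters of recently duplicated genes, had 14 of 58 tested members called higher and none lower, with a median of 0.57, and 9 called without CC_TG(A366) replicate 1. The 14 were 24.1% of the tested members, beside 3.1% of all genes. Zfp981 went from 62.5 and 58.2 CPM to 400.0 and 313.2 CPM and Zfp977 from 24.8 and 15.7 CPM to 157.1 and 134.4 CPM, each above its IVF mean of 74.2 and 75 CPM. All 3 Trim43 genes rose (none called without CC_G(A366) replicate 2, 1 without CC_TG(A366) replicate 1), with Trim43b, the most abundant, at 845.4 and 554.8 CPM against 2114.4 and 1841.4 CPM.

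Families with fallen members were of the cytoskeleton, the matrix and signalling. Of 15 tested alpha and beta tubulins 4 were called lower and none higher: Tuba1a went from 6.71 and 8.99 CPM to 1.65 and 1.69 CPM, Tuba1b, Tuba1c and Tubb3 also fell, and with TSA added to RK-701 8 of the 15 were lower. Of 36 collagen chains 4 were called lower, with a median of -1.22, and Col27a1 went from 22 and 13.7 CPM to 1.14 and 2.7 CPM. Of 21 dual-specificity phosphatases, which switch off MAP kinases, 3 were called lower (Dusp5, Dusp6 and Dusp18), and of 16 Krüppel-like factors 3 (Klf2, Klf4 and Klf10). The shares called lower were 26.7% of tubulins, 11.1% of collagens, 14.3% of phosphatases and 18.8% of Krüppel-like factors, beside 1.66% of all genes. With 1 library left out, 2 or 3 tubulins, 1 or 2 collagens, 0 to 3 phosphatases and 1 Krüppel-like factor were called lower; for the tubulins the lowest count came without replicate 1 of CC_G(A366) or replicate 2 of CC_TG(A366), for the collagens without replicate 1 of either group, and for the phosphatases without CC_G(A366) replicate 2.

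The risen genes were spread over the genome: between 2.07% (chromosome 15) and 4.5% (chromosome 13) of the tested genes of each autosome were called higher, and between 0.786% (chromosome 9) and 3.05% (chromosome 18) lower.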
